A study of Mus musculus with 12 samples.

Results

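RNA levels of 10 genes of the G1 phase and the RB pathway were measured in liver tumors and livers from E2F7/8 DKO (double knockout) mice, and in wild-type livers. The genes were 3 D-type cyclins (Ccnd1, Ccnd2, Ccnd3), their kinases (Cdk4, Cdk6), the pocket proteins Rb1 and Rbl2, the kinase inhibitors Cdkn2c and Cdkn1b, and the transcription factor gene Myc. They were chosen by symbol, with the transcript of longest exon length for each symbol, and make up 10 of the 19012 gene symbols measured. All 10 were found, and all 10 passed the filter of at least 0.5 RPKM in at least 4 libraries, together with 11351 genes in all. RPKM is reads per kilobase of exon, scaled to the library's reads, and allows levels of different genes to be compared.

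The 12 libraries came from 4 liver tumors labelled E2F7/8 DKO, 4 livers labelled E2F7/8 DKO and 4 livers labelled wt (wild type, WT). The deleted exons, the Cre driver if any, strain, age and sex were not given in the sources used here. Codes for the animals, found in the file names, pair each DKO tumor with the DKO liver of the same number, so each DKO liver came from an animal that also gave a tumor. The WT livers came from other animals. The names also carry a tag of unstated meaning, L03 for all DKO tumors and WT livers 3 and 4, and L02 for all DKO livers and WT livers 1 and 2. Tumor and DKO liver therefore cannot be told apart from the tag, whereas WT livers carry both tags.

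D-type cyclins activate CDK4 and CDK6 in G1, and these kinases phosphorylate RB1 and the related pocket proteins, which then release E2F transcription factors. INK4 proteins such as the Cdkn2c product p18 bind CDK4 and CDK6, and Cip/Kip proteins such as the Cdkn1b product p27 bind cyclin-CDK complexes. E2F7 and E2F8 are repressors of E2F target genes that act without a pocket protein, and in mouse liver they are known for promoting hepatocyte polyploidy.

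Sequencing depth ranged from 7.985 to 15.956 M (mega) reads per library. E2f7 averaged 0.179 RPKM in DKO tumors, 0.281 RPKM in DKO livers and 0.138 RPKM in WT livers, and E2f8 averaged 5.70, 9.75 and 2.70 RPKM in the same order. Because the deleted parts were not given, these transcript values do not check the genotype. DKO liver 3 stood apart from the other DKO livers in its marker sums: that of 9 proliferation markers was 26.6 RPKM in it, against 6.35 to 14.6 RPKM in the other DKO livers. Its sum of 6 cholangiocyte markers was 166 RPKM, of which Spp1 held 154 RPKM. Its sum of 8 stellate cell and fibroblast markers was 346 RPKM, and both sums were the highest of the 12 libraries. DKO tumor 3, of the same animal, also stood apart from the other tumors. Its cholangiocyte sum was 118 RPKM against 18.8 to 37.4 RPKM, and its stellate sum 238 RPKM against 57.8 to 67.1 RPKM. These 2 libraries were each other's nearest by correlation, at 0.9826. The 8 hepatocyte markers summed to 69162 to 125565 RPKM in DKO tumors, 37012 to 109755 RPKM in DKO livers and 46028 to 71626 RPKM in WT livers, so hepatocyte RNA was abundant in every library. Alb made up most of each sum, with 57617 to 109387 RPKM in DKO tumors. By mean, Ttr, Cps1 and Tat were lower in tumors than in WT livers (0.536, 0.656 and 0.738 times), and the other markers of this list were higher.

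Promoter sequences were read from RefSeq (build GRCm38.p6, 250 bases before to 50 after each start) for those members that had a promoter entry. They were searched on both strands for the E2F core words TTCCCGC or TTCGCGC or TTGCCGC or TTGGCGC. Ccnd1, Ccnd2, Rb1 and Myc had no such entry. The other 6 members matched, with 8 promoters: Cdkn2c, Cdk6, Rbl2, Cdk4, Ccnd3 and Cdkn1b. The words stood in 1 of these 8 (12.5%), in 12 of 50 promoters of other genes of the pathway (24.0%) and in 3145 of 32851 promoters overall (9.57%). Among these 8, the Cdkn2c promoter was the one with a word, and the window around it is shown in gene orientation with the word in capitals, on chr4:109666764-109666792, minus strand. The word begins 25 bases before the start, and 1 of 2 annotated transcripts of the gene holds at least part of this window.
Cdkn2c: ggggcccggccTTCCCGCtcccgcggcgc
Windows of the same length are shown for comparison from Rbl1 (chr2:157204534-157204562, minus strand), which encodes the pocket protein p107, and Cdc25a (chr9:109875502-109875530, plus strand), which encodes a phosphatase that activates CDK2. The Cdc25a capitals hold 2 overlapping words on opposite strands. Lin52, another gene of the pathway, also held TTCCCGC, beginning 26 bases before its start, and its window is not shown. Its RPKM was lower in every DKO tumor and every DKO liver than in every WT liver, though it did not pass the test (limma adjusted p = 0.122 and 0.411). A word was thus found in genes with changes of either sign.
Rbl1: agaaggcgattTTCGCGCgctttgtcgcg
Cdc25a: gtgaattccgtTTGGCGCCAActaggaaa
Cdk6 and Rbl2 held none of the words in their windows, and the 100 bases before the start are shown on chr5:3343793-3343892 and chr8:91069957-91070056, both plus strand, since these genes stand beside Cdkn2c in the results.
Cdk6: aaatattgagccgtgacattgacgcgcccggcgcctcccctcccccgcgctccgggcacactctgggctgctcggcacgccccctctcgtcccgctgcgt
Rbl2: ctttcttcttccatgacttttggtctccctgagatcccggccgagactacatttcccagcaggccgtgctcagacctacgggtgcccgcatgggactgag
A match describes letters in a window and does not show binding.

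In DKO tumors against WT livers, Cdkn2c rose and no other member passed the test. The limma adjusted p was below 0.05 for 1 of 10 members, against 1.90% of all genes tested, and an unadjusted p below 0.05 was found for 3 members, against 19.2% of genes. In 3 of 10 members the tumors and the WT livers did not overlap, against 11.9% of all genes: Cdkn2c and Cdk6 lay higher in every tumor (5.57% of genes did) and Rbl2 lay lower (6.32%). Of the members, 5 had a positive and 5 a negative log2 change, with a median of -0.04, beside -0.02 over all genes. For DKO livers against WT livers no member passed, and 0% of all genes did. At unadjusted p under 0.05 there was 1 member there, Rbl2, and 12.4% of all genes, and voom on the recovered reads called 0 members. Nor did any member pass for DKO tumors against DKO livers, against 0.00881% of all genes (a single gene, Kif5c). At unadjusted p under 0.05 there were 2 members, Cdk6 and Cdkn2c, and 16.1% of all genes, and voom called 0 members. Groups did not overlap there for 0 of 10 members, against 6.20% of all genes (2.12% higher and 4.08% lower in tumors). With the animal as a block, 0 members and 0.625% of all genes passed. DKO livers and tumors share the WT controls, so the comparisons against WT are not independent. The median log2 change of the members was -0.09 in DKO livers against WT livers, beside 0.08 over all genes, and -0.23 in DKO tumors against DKO livers, beside -0.09 over all genes. In bulk tissue, fewer cells of a type and less RNA per cell cannot be told apart.

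**Figure D1:**
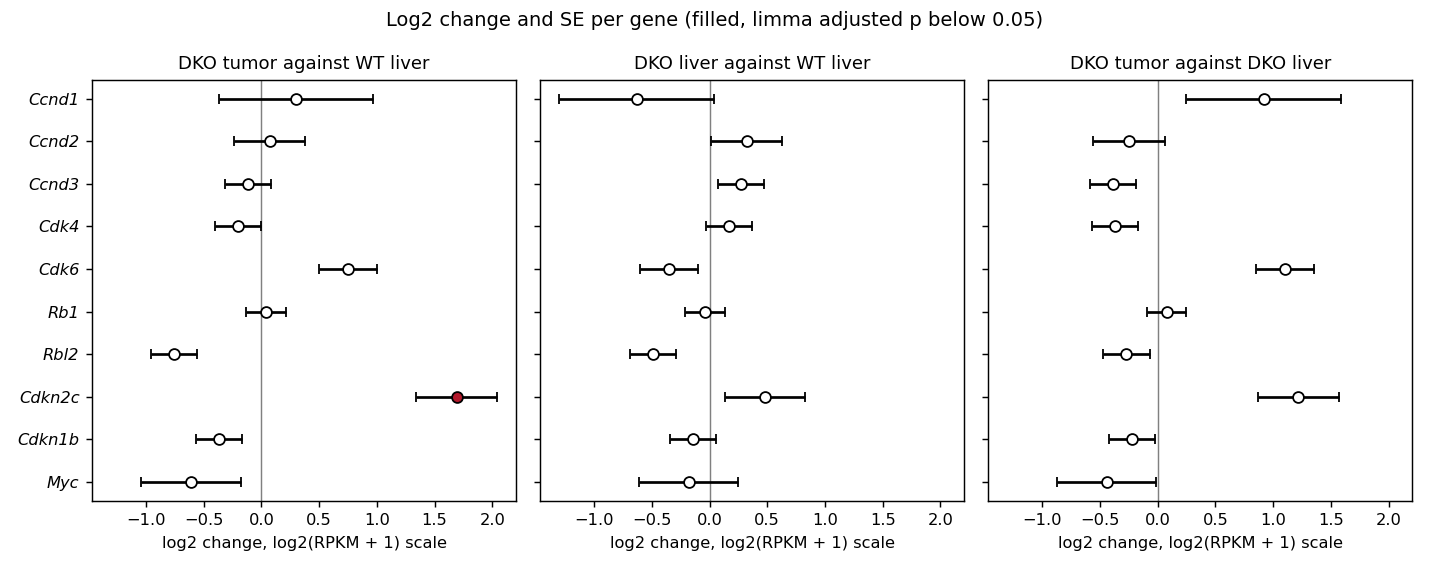
Log2 change (x axis, log2(RPKM + 1) scale) of the 10 genes in 3 comparisons, with bars for the standard error and a filled point where the limma adjusted p was below 0.05. Cdkn2c in DKO tumors against WT livers, at 1.69, is the filled point, while Cdk6 and Rbl2 lie 0.75 above and 0.76 below 0 in that panel.

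**Figure D2:**
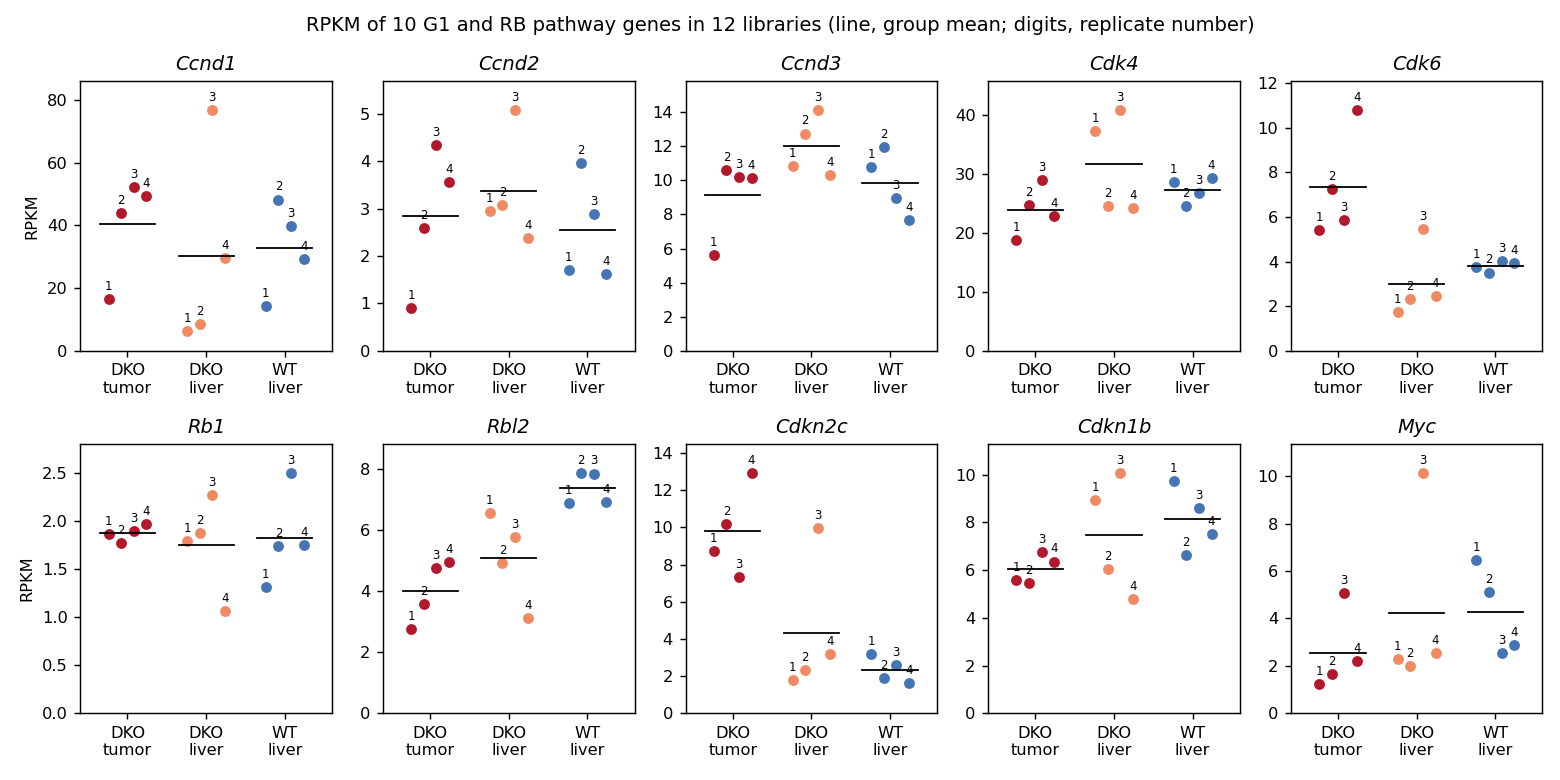
RPKM (y axis, from 0) of each of the 10 genes in 4 DKO tumors, 4 DKO livers and 4 WT livers, with points for libraries, digits for replicate numbers and a line for the group mean. Cdkn2c and Cdk6 lie above WT livers in every tumor, Rbl2 lies below, and DKO liver 3 is the highest DKO liver in 9 of 10 panels.

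Ccnd1, the main D-type cyclin of liver, had the highest mean of the members, 34.6 RPKM over the 12 libraries, and the widest spread, 12.32 times from the lowest to the highest library. The gene lies on mm9 chromosome 7 from 152115835 to 152125829, minus strand. DKO tumors 1 to 4 had 16.6, 43.9, 52.3 and 49.4 RPKM, DKO livers 1 to 4 had 6.23, 8.59, 76.8 and 29.4 RPKM, and WT livers 1 to 4 had 14.4, 48.2, 39.8 and 29.2 RPKM. The groups overlapped widely: both the lowest and the highest library were DKO livers. The log2 change was 0.30 (SE 0.67, limma adjusted p = 0.864) in DKO tumors against WT livers, -0.63 (SE 0.67, adjusted p = 0.71) in DKO livers against WT livers and 0.92 (SE 0.67, adjusted p = 0.524) in DKO tumors against DKO livers. Without DKO liver 3 the change was -1.28 for DKO livers against WT livers and 1.57 (adjusted p = 0.245) for DKO tumors against DKO livers. The SE of 0.67 was the largest of the 10 genes.

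Ccnd2 and Ccnd3 encode the other D-type cyclins. Ccnd2 (mm9 chromosome 6, 127075726 to 127101065, minus strand) had 0.912, 2.59, 4.34 and 3.56 RPKM in DKO tumors, 2.95, 3.07, 5.09 and 2.39 RPKM in DKO livers and 1.71, 3.96, 2.89 and 1.62 RPKM in WT livers. Ccnd3 (mm9 chromosome 17, 47641999 to 47736636, plus strand) had 5.62, 10.6, 10.2 and 10.1 RPKM in DKO tumors, 10.9, 12.8, 14.1 and 10.3 RPKM in DKO livers and 10.8, 11.9, 8.98 and 7.66 RPKM in WT livers. Groups overlapped in every comparison for both genes. Against WT livers the tumor log2 change was 0.07 (SE 0.31, limma adjusted p = 0.931) for Ccnd2 and -0.12 (SE 0.20, adjusted p = 0.818) for Ccnd3. DKO livers against WT livers gave 0.32 (SE 0.31, adjusted p = 0.679) for Ccnd2 and 0.27 (SE 0.20, adjusted p = 0.578) for Ccnd3. Tumors against DKO livers gave -0.25 for Ccnd2 (SE 0.31, adjusted p = 0.733). For Ccnd3 that comparison gave -0.39 (SE 0.20, adjusted p = 0.363), with a lower value in the tumor than in its own liver in 4 of 4 animals.

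Within the D-type cyclins, Ccnd1 made up 71.8 to 78.3% of the summed RPKM in DKO tumors, 31.1, 35.2, 80.0 and 69.8% in DKO livers 1 to 4, and 53.5, 75.2, 77.0 and 75.9% in WT livers 1 to 4. In DKO livers 1 and 2 Ccnd3 was the leading D-type cyclin, at 54.2 and 52.2%. The other 10 libraries had Ccnd1 as the leading one.

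Cdk6 encodes a kinase that pairs with D-type cyclins, and it lies on mm9 chromosome 5 from 3344311 to 3522224, plus strand. In DKO tumors 1 to 4 it had 5.40, 7.27, 5.86 and 10.8 RPKM. DKO livers 1 to 4 had 1.74, 2.30, 5.45 and 2.44 RPKM, against 3.75, 3.51, 4.02 and 3.93 RPKM in WT livers 1 to 4. Each tumor lay above each WT liver, and DKO livers 1, 2 and 4 lay below all WT livers while DKO liver 3 lay above them. The means were 7.33 ± 2.45 RPKM in DKO tumors, 2.98 ± 1.67 RPKM in DKO livers and 3.80 ± 0.224 RPKM in WT livers (SD, n = 4 each).

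Against WT livers the tumor log2 change of Cdk6 was 0.75 (SE 0.25, limma adjusted p = 0.122). The exact permutation p was 0.0286, two-sided and the smallest that 4 against 4 libraries allow. It passed in 0 of 12 fits that left out a library and in 2 of 13 other settings. These were median-of-ratios scaling (0.79, adjusted p = 0.0454) and the fit without animal 3 (0.83, adjusted p = 0.0359), which was added after seeing the data. Within the tag L03 the change was 0.70 (adjusted p = 0.42), and with the tag as a covariate 0.70 (adjusted p = 0.487). Against DKO livers the tumor log2 change was 1.10 (SE 0.25, adjusted p = 0.0793, and 0.12 with the animal as a block). That comparison passed in 2 of 12 fits that left out a library, without DKO liver 3 (1.36, adjusted p = 0.0196) and without DKO tumor 3 (1.18, adjusted p = 0.0401). Of 11 other settings it passed in 2. These were quantile normalization (1.20, adjusted p = 0.049) and the fit without both libraries of animal 3 (1.44, adjusted p = 0.00618), which was added after seeing the data. Cdk6 RPKM in the tumor was 3.10, 3.16, 1.07 and 4.42 times that of its own liver in animals 1 to 4, above 1 in 4 of 4 animals. DKO livers against WT livers gave -0.35 (SE 0.25, adjusted p = 0.56), and -0.61 without DKO liver 3.

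Cdk4 encodes the other kinase that D-type cyclins activate, and it lies on mm9 chromosome 10 from 126500658 to 126504337, plus strand. It had 18.9, 24.7, 29.0 and 22.9 RPKM in DKO tumors 1 to 4, 37.3, 24.6, 40.9 and 24.2 RPKM in DKO livers 1 to 4, and 28.7, 24.7, 26.8 and 29.3 RPKM in WT livers 1 to 4. All 3 groups overlapped. The log2 change was -0.20 (SE 0.20, limma adjusted p = 0.635) in DKO tumors against WT livers, and 0.17 (SE 0.20, adjusted p = 0.727) in DKO livers against WT livers. Tumors against DKO livers gave -0.37 (SE 0.20, adjusted p = 0.369).

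Cdk6 was 22.3, 22.7, 16.8 and 32.1% of the Cdk4 and Cdk6 sum in DKO tumors 1 to 4, 4.46 to 11.8% in DKO livers and 11.6 to 13.0% in WT livers. All 4 tumors were above every liver of either genotype, including DKO liver 3 at 11.8%. The sum of both kinases was 31.2 ± 4.79 RPKM in DKO tumors, 34.7 ± 9.69 RPKM in DKO livers and 31.2 ± 2.24 RPKM in WT livers (SD, n = 4 each). The shares are a description and were given no test.

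**Figure D3:**
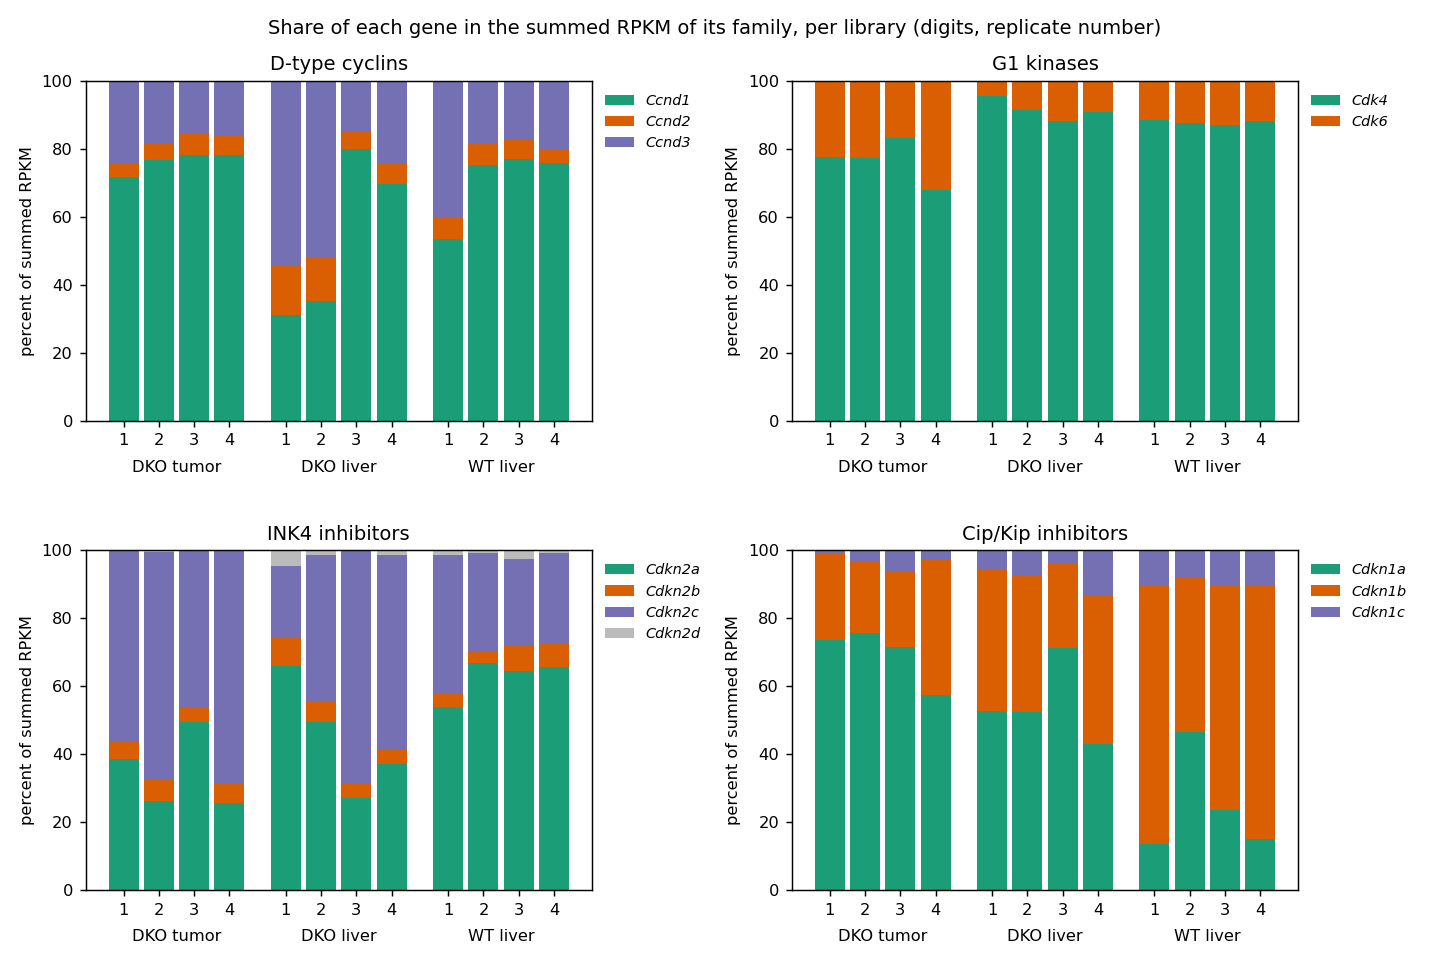
Share (y axis, percent of the summed RPKM, 0 to 100) of each gene within the D-type cyclins, the G1 kinases, the INK4 inhibitors and the Cip/Kip inhibitors, with a bar per library. Cdk6 takes 16.8 to 32.1% of its family in DKO tumors, against at most 13.0% in any liver, and Cdkn2c takes at least 46.2% of the INK4 sum in each tumor.

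Cdkn2c encodes p18INK4c, an inhibitor that binds CDK4 and CDK6. The gene lies on mm9 chromosome 4 from 109333480 to 109337976, minus strand, as the files give it. DKO tumors 1 to 4 had 8.73, 10.2, 7.34 and 12.9 RPKM. DKO livers 1 to 4 had 1.79, 2.34, 9.98 and 3.22 RPKM, and WT livers 1 to 4 had 3.17, 1.91, 2.59 and 1.65 RPKM. All 4 tumors lay above all 4 WT livers, while DKO liver 3 alone among the DKO livers lay within the range of the tumors. The means were 9.79 ± 2.40 RPKM in DKO tumors, 4.33 ± 3.81 RPKM in DKO livers and 2.33 ± 0.686 RPKM in WT livers (SD, n = 4 each). These values rest on 116 to 215 reads in each tumor, 24 to 136 in each DKO liver and 26 to 34 in each WT liver.

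The log2 change of Cdkn2c in DKO tumors against WT livers was 1.69 (SE 0.35, limma adjusted p = 0.0319), 3.24-fold on the log2(RPKM + 1) scale, which ranked 56 from the highest of all genes. The exact permutation p was 0.0286. The call did not hold when a single library was left out in 7 of 12 cases: DKO tumors 1, 2 or 4 (adjusted p 0.0673, 0.0964 and 0.0649) or WT livers 1, 2, 3 or 4 (0.0917, 0.0769, 0.0522 and 0.109). The log2 change stayed between 1.56 and 1.81 over these 12 fits. Within the tag L03, DKO tumors stood 1.78 above WT livers 3 and 4 on the log2 scale (adjusted p = 0.0293). With the tag as a covariate it was 1.78 (SE 0.45, adjusted p = 0.231), and without the filter on low values 1.69 (adjusted p = 0.132). The 9 proliferation markers summed to 11.7 to 35.8 RPKM in DKO tumors, 6.35 to 26.6 RPKM in DKO livers and 3.94 to 9.37 RPKM in WT livers. No marker of the list was at 0 in every library. The tumors were not in the same order as for Cdkn2c. DKO tumor 4, the highest for Cdkn2c, had the lowest sum of the tumors, 11.7 RPKM. WT liver 1, the highest WT liver for Cdkn2c, likewise had the lowest sum of its group, 3.94 RPKM. DKO livers 3 and 4, in contrast, were the highest DKO livers for both, with sums of 26.6 and 14.6 RPKM. Of these markers, 7 of 9 lay higher in every tumor than in every WT liver, against 5.57% of all genes. Their part in the result was not tested. In the cholangiocyte, endothelial, macrophage, lymphocyte and stellate cell lists 0 markers separated tumors from WT livers in this way, and in the hepatocyte list 1 of 8 did. Cholangiocyte markers summed to 18.8 to 118 RPKM in DKO tumors, 27.3 to 166 RPKM in DKO livers and 25.0 to 42.0 RPKM in WT livers, with Cftr at 0 in some libraries.

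DKO livers against WT livers gave a log2 change of 0.48 for Cdkn2c (SE 0.35, limma adjusted p = 0.577), and 0.05 without DKO liver 3. DKO tumors against DKO livers gave 1.22 (SE 0.35, adjusted p = 0.141, and 0.187 with the animal as a block). Without DKO liver 3 the tumor change against DKO livers was 1.64 (adjusted p = 0.00914), and 1 of 12 fits that left out a library passed. Without both libraries of animal 3 the change was 1.76 (adjusted p = 0.00268), and 1 of 11 other settings passed. The fit without animal 3 was added after seeing the data. Within animals the tumor had 4.86, 4.34, 0.74 and 4.02 times the RPKM of its own liver for animals 1 to 4. In 3 of 4 animals Cdkn2c was higher in the tumor, and animal 3 went the other way.

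Of the summed RPKM of Cdkn2a, Cdkn2b, Cdkn2c and Cdkn2d, Cdkn2c made up 59.4 ± 10.4% in DKO tumors, 47.5 ± 20.4% in DKO livers and 30.3 ± 7.22% in WT livers (SD, n = 4 each). Each tumor, at 46.2% or more, lay above each WT liver, at 41.0% or less. Cdkn2a, which encodes p16INK4a and p19ARF, held 35.0 ± 11.3% in DKO tumors, 44.9 ± 16.8% in DKO livers and 62.7 ± 5.90% in WT livers. The ratio of Cdk4 to Cdkn2c RPKM was 1.77 to 3.96 in DKO tumors, 4.10 to 20.8 in DKO livers and 9.04 to 17.8 in WT livers. No tumor overlapped either liver group in that ratio, which was given no test.

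Cdkn1b encodes p27KIP1 and lies on mm9 chromosome 6 from 134870418 to 134875542, plus strand. It had 5.60, 5.47, 6.75 and 6.36 RPKM in DKO tumors 1 to 4, 8.94, 6.05, 10.1 and 4.80 RPKM in DKO livers 1 to 4, and 9.74, 6.62, 8.60 and 7.54 RPKM in WT livers 1 to 4. A single WT liver, at 6.62 RPKM, lay within the tumor range. The log2 change was -0.37 (SE 0.20, limma adjusted p = 0.34) in DKO tumors against WT livers, with an exact permutation p of 0.0571. It was -0.14 (SE 0.20, adjusted p = 0.786) in DKO livers against WT livers and -0.22 (SE 0.20, adjusted p = 0.611) in DKO tumors against DKO livers. The ratio of Cdkn2c to Cdkn1b RPKM was 1.09 to 2.03 in DKO tumors, 0.201 to 0.989 in DKO livers and 0.219 to 0.326 in WT livers.

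Rbl2 encodes p130, a pocket protein of quiescent cells that works in the DREAM repressor complex, and it lies on mm9 chromosome 8 from 93594007 to 93647742, plus strand. It had 2.77, 3.58, 4.78 and 4.94 RPKM in DKO tumors 1 to 4. DKO livers 1 to 4 had 6.55, 4.94, 5.79 and 3.13 RPKM, against 6.91, 7.89, 7.86 and 6.92 RPKM in WT livers 1 to 4. Every DKO tumor and every DKO liver lay below every WT liver, whereas DKO tumors and DKO livers overlapped. The means were 4.02 ± 1.03 RPKM in DKO tumors, 5.10 ± 1.47 RPKM in DKO livers and 7.39 ± 0.553 RPKM in WT livers (SD, n = 4 each).

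The log2 change of Rbl2 was -0.76 (SE 0.20, limma adjusted p = 0.0641) in DKO tumors against WT livers and -0.49 (SE 0.20, adjusted p = 0.365) in DKO livers against WT livers. It was -0.27 (SE 0.20, adjusted p = 0.524) in DKO tumors against DKO livers. The exact permutation p was 0.0286 in both comparisons with WT livers. Groups without overlap in DKO livers against WT livers were found for 1 of 10 members, against 7.59% of all genes. For tumors against WT livers, 1 of 12 fits that left out a library passed, without DKO liver 4 (adjusted p = 0.0363). Of 13 other settings 4 passed. The adjusted p was 0.0165 under median-of-ratios scaling, 0.0151 under quantile normalization, 0.0456 with the 8 libraries alone and 0.0499 without animal 3. The fit without animal 3 was added after seeing the data. With the tag as a covariate the adjusted p was 0.351. Within the tag L03 the tumor change was -0.76 (adjusted p = 0.346), and within the tag L02 the DKO liver change was -0.49 (adjusted p = 0.849). Aktip, on the opposite strand, overlaps the Rbl2 locus by 345 bases, and since strand use in counting was not given, the Rbl2 value is uncertain in that respect. Whole gene spans were compared, so whether exons overlap was not checked.

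Rb1 encodes the retinoblastoma protein and had the lowest mean of the members, 1.82 RPKM over the 12 libraries (mm9 chromosome 14, 73595308 to 73725546, minus strand). The 4 DKO tumors had 1.86, 1.77, 1.90 and 1.96 RPKM, DKO livers had 1.79, 1.87, 2.27 and 1.06 RPKM and WT livers had 1.31, 1.74, 2.50 and 1.75 RPKM. The tumors lay within the range of the WT livers. The log2 change in DKO tumors against WT livers was 0.04 (SE 0.17, limma adjusted p = 0.93), in DKO livers against WT livers -0.04 (SE 0.17, adjusted p = 0.927) and in DKO tumors against DKO livers 0.08 (SE 0.17, adjusted p = 0.847). P2ry5, on the opposite strand inside the locus, overlaps it over 2447 bases. This overlap is also of whole gene spans, and whether it reaches Rb1 exons, and so the Rb1 level, was not checked.

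With Rbl1 included, Rbl2 made up 52.1 ± 5.65% of the summed pocket protein RPKM in DKO tumors, 62.3 ± 8.93% in DKO livers and 72.5 ± 5.90% in WT livers (SD, n = 4 each). Rbl1, whose product is associated with cycling cells, made up 22.7 ± 5.45% in DKO tumors, 16.4 ± 10.1% in DKO livers and 9.88 ± 5.38% in WT livers. The 4 tumors, at 59.5% or less, were below the 4 WT livers, at 67.8% or more, in the Rbl2 share. The Rbl1 shares of the same groups overlapped.

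Myc encodes a transcription factor that raises G1 cyclin and kinase activity, and it lies on mm9 chromosome 15 from 61816895 to 61821915, plus strand. DKO tumors 1 to 4 had 1.25, 1.64, 5.07 and 2.19 RPKM, DKO livers 1 to 4 had 2.28, 1.99, 10.1 and 2.56 RPKM, and WT livers 1 to 4 had 6.47, 5.11, 2.56 and 2.90 RPKM. The 3 groups overlapped, and the WT livers of tag L02 had the higher WT values. The tumor log2 change against WT livers was -0.61 (SE 0.43, limma adjusted p = 0.478) and -0.18 within the tag L03. DKO livers against WT livers gave -0.18 (SE 0.43, adjusted p = 0.889), -0.61 within the tag L02 and -0.62 without DKO liver 3. DKO tumors against DKO livers gave -0.44 (SE 0.43, adjusted p = 0.655), with a lower value in the tumor in 4 of 4 animals. Within animals 1 to 4 the tumor differed from its own liver by -0.54, -0.18, -0.88 and -0.16 on the log2 scale. With the animal as a block the difference was -0.44 (SE 0.18, limma adjusted p = 0.269). Without DKO liver 3 the unblocked difference was 0.00 (adjusted p = 0.997). That fit kept DKO tumor 3, the highest tumor, without its own liver.

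**Figure D4:**
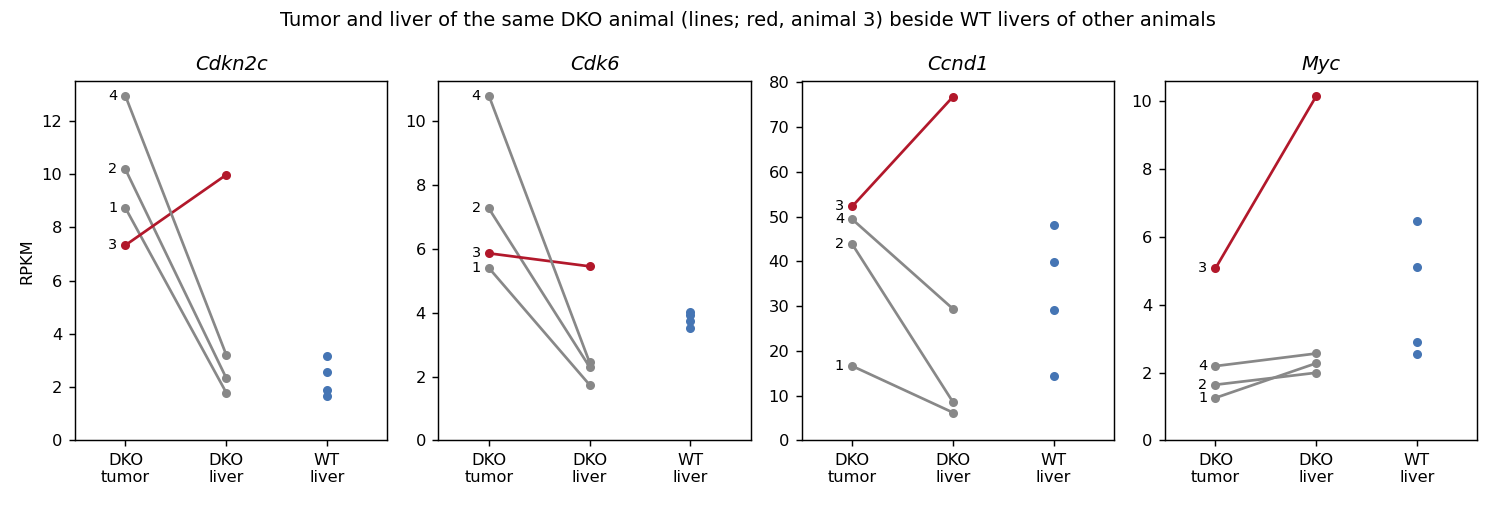
RPKM (y axis, from 0) of Cdkn2c, Cdk6, Ccnd1 and Myc in the tumor and the liver of the same DKO animal, joined by lines, beside WT livers of other animals, with animal 3 in red. Cdk6 is higher in the tumor than in the liver in 4 of 4 animals, and Cdkn2c and Ccnd1 in 3 of 4, with animal 3 the exception for both. Myc is higher in the liver in 4 of 4 animals.

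DKO liver 3 carried much of the spread of the members. It was the highest of the 12 libraries for 6 of 10 members (Ccnd1, Ccnd2, Ccnd3, Cdk4, Cdkn1b and Myc) and the highest DKO liver for 9 of 10, with Rbl2 the exception. Without it, DKO livers averaged 14.7 ± 12.8 RPKM for Ccnd1, 2.16 ± 0.372 for Cdk6, 2.45 ± 0.718 for Cdkn2c and 2.28 ± 0.284 for Myc (SD, n = 3). DKO tumor 1 was the lowest tumor for 7 of 10 members and had the lowest median-of-ratios size factor, 0.759, against 0.912 to 1.271 in the 11 other libraries. DKO liver 3 had the highest of these factors, 1.271, so RPKM ran high in it for genes in general. The shares of all genes that were highest or lowest in these libraries were not counted. The counts of members therefore cannot be read as particular to them.

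Other genes of the pathway were described as a list of 48, of which 47 were tested. Cdkn2d, an INK4 gene, did not pass the filter and lay at 0 to 0.391 RPKM. For tumors against WT livers 1 of 47 rose and 1 fell, against 1.23% and 0.670% of all genes. There were 26 positive and 21 negative changes, with a median log2 change of 0.04. For the other two comparisons, DKO livers against WT livers and DKO tumors against DKO livers, 0 of 47 passed in limma or voom, with 2 and 7 at unadjusted p under 0.05. Among all genes tested, 12.4% and 16.1% had such a p in these comparisons.

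The gene that rose was Cdkn1a, a known p53 target gene whose product p21 inhibits cyclin-CDK complexes. DKO tumors 1 to 4 had 16.2, 19.4, 21.7 and 9.14 RPKM, DKO livers 1 to 4 had 11.3, 7.88, 29.0 and 4.73 RPKM, and WT livers 1 to 4 had 1.75, 6.77, 3.04 and 1.52 RPKM. All 4 tumors lay above all 4 WT livers, and the DKO livers overlapped both. The tumor log2 change was 2.13 (SE 0.49, limma adjusted p = 0.0474), and 2.40 within the tag L03 (adjusted p = 0.0349). It passed in 4 of 12 fits that left out a library, with adjusted p from 0.0208 to 0.16: it was lost without DKO tumors 1, 2 or 3, without DKO livers 1 or 2 and without WT livers 1, 3 or 4. It was also lost without the filter on low values (adjusted p = 0.152), with a filter of 2 RPKM (0.0521), with the tag as a covariate (0.234) and in voom (0.0681). Of the summed Cip/Kip RPKM, Cdkn1a made up 69.5 ± 8.19% in DKO tumors, 54.9 ± 11.9% in DKO livers and 24.7 ± 15.2% in WT livers, and Cdkn1b made up 27.2 ± 8.70%, 37.6 ± 8.64% and 65.7 ± 14.2% in the same groups (SD, n = 4 each). DKO livers against WT livers gave 1.61 for Cdkn1a (SE 0.49, adjusted p = 0.291).

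The gene that fell was Fbxo31, which encodes an F-box protein of a ubiquitin ligase that targets cyclin D1. It had 5.82, 4.03, 6.998 and 9.11 RPKM in DKO tumors 1 to 4, 25.6, 12.1, 12.2 and 10.3 RPKM in DKO livers 1 to 4, and 19.8, 13.0, 15.6 and 15.1 RPKM in WT livers 1 to 4. Every tumor lay below every liver of either genotype. The tumor log2 change was -1.20 against WT livers (SE 0.27, limma adjusted p = 0.0386) and -1.06 against DKO livers (SE 0.27, adjusted p = 0.0963). Within the tag L03 the change against WT livers was -1.17 (adjusted p = 0.223). The call against WT livers passed in 6 of 12 fits that left out a library, with adjusted p from 0.0213 to 0.141, and was lost without DKO tumors 1 or 2 or any one of the 4 WT livers. It was also lost without the filter on low values (adjusted p = 0.146) and with the tag as a covariate (0.283).

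E-type cyclins and Rbl1, genes that E2F factors are known to activate, did not pass in any comparison. Tumor log2 changes against WT livers were 0.63 for Ccne1 (SE 0.34, limma adjusted p = 0.335), 0.42 for Ccne2 (SE 0.25, adjusted p = 0.382) and 0.44 for Rbl1 (SE 0.27, adjusted p = 0.403). Ccne2 overlaps Ints8 on the opposite strand over 5621 bases of gene span. Whether exons overlap was not checked, so the Ccne2 level is uncertain in that respect. In DKO livers against WT livers the smallest p-values after Cdkn1a belonged to Trp53, which encodes p53 (0.53, adjusted p = 0.387), and Lin52, a DREAM subunit gene (-0.38, adjusted p = 0.411). For tumors against DKO livers they belonged to Fbxo31, to the Myc relative Mycl1 (0.51, adjusted p = 0.217) and to the Max partner Mxd1 (-0.54, adjusted p = 0.224).

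**Figure D5:**
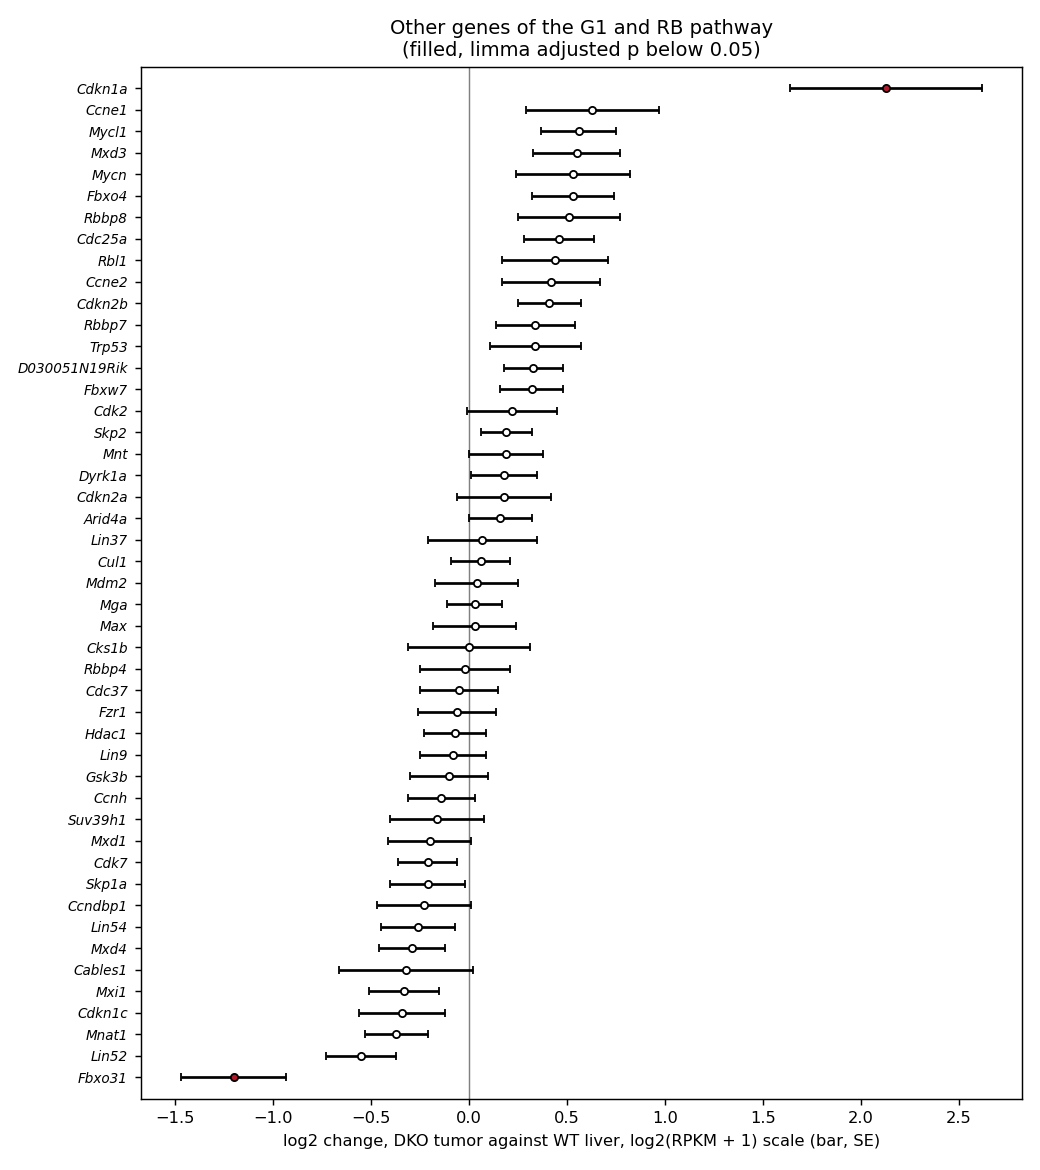
Log2 change (x axis, log2(RPKM + 1) scale, bar for the standard error) of the 47 other tested genes of the pathway in DKO tumors against WT livers, sorted by change and filled where the limma adjusted p was below 0.05. Cdkn1a at 2.13 and Fbxo31 at -1.20 stand at the ends, and the other genes lie between -0.55 and 0.63.

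Profiles over the 12 libraries, standardized per gene, were compared by root mean square distance in units of SD. Among the members, Cdkn2c and Cdk6 were closest, at 0.52, followed by Ccnd2 and Ccnd3 at 0.60, Cdk4 and Cdkn1b at 0.64, and Rbl2 and Cdkn1b at 0.67. Rbl2 and Cdkn2c were farthest apart, at 1.69. Of the 11350 other tested genes, the nearest to Cdkn2c were Ccdc88c (0.291) and Vangl1 (0.312), and to Cdk6 they were Rasa1 (0.332) and Gstm3 (0.347). The nearest to Rbl2 were Mrpl18 (0.300) and Ccdc90a (0.317), to Ccnd1 Gas2l3 (0.311) and Wee1 (0.361), and to Myc Pigt (0.396) and A530016L24Rik (0.401). For Cdkn1b they were Polr2f (0.231) and Blvra (0.298), for Cdk4 Anapc11 (0.326) and Patz1 (0.337), for Ccnd2 Pwp2 (0.241) and Rpo1-2 (0.295), and for Ccnd3 Cdc34 (0.397) and Wbp1 (0.410). Rb1 had the most distant neighbours, B630005N14Rik (0.452) and Dclre1c (0.533). These distances share libraries, depth and scaling, and describe likeness of profile alone.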

How the data were processed

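Polyadenylated RNA was sequenced on the SOLiD platform, per the labels' protocols, from 4 liver tumors and 4 livers of E2F7/8 DKO mice and 4 wild-type livers. The deposited values are RPKM, which the authors computed per RefSeq transcript. The submitters' processing notes name BWA and the build mm9, without versions or roles, and the counting tool, its use of strand and any filter are not given in the sources used here. Whether start coordinates count from 0 or 1 is not stated. RPKM times exon length was a whole multiple of 1 read for at least 99.987% of values per library, within 0.05 of a read, which gave depth and reads per gene. Reads carry no molecular identifiers, so read numbers describe counting error only.

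The 21247 transcripts have 19012 symbols, 1520 of them with several transcripts, of which the longest was kept. Current names were taken from the gene table by accession, for 18507 symbols. The main model, in limma 3.58.1 (R 4.3.3), estimated 1 mean for each of the 3 groups on log2(RPKM + 1) across the 12 libraries, using robust shrinkage and a trend of variance on level. Tests were two-sided on 11351 genes, those reaching 0.5 RPKM in 4 or more libraries, and Benjamini-Hochberg adjustment at 0.05 covered all of them. Folds on this scale understate changes of low genes. Single members were also compared by exact permutation over 70 splits, without adjustment over the 30 tests. The labels do not say more on the source of the replicates, so p-values measure the spread between these samples.

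The DKO tumor and DKO liver of a number share an animal by the codes, and their deviations from the group means correlated at 0.117, 0.346, 0.367 and 0.003. Tumors and DKO livers of different number correlated at -0.25 to 0.154, so the values of animals 1 and 4 lay within that range. The pairing by number therefore rests on the codes, and the blocked p is given where it bears on a result. Alternatives were the offset, the filter, 2 scalings, the shortest transcript, the 8 libraries of a comparison alone, the tag, the replicate block, voom, non-robust shrinkage and leaving out each library. Leaving out animal 3 was added after seeing the data. The members, the list of other pathway genes, the marker lists and the rule for named genes were chosen with earlier results of these data known. That rule names all members, each called gene of the pathway list or the 3 with the smallest p, Rbl1, Cdkn1a, Ccne1 and Ccne2 in any case, and the 2 nearest profiles. The fits were tested on simulated data. Tables were read in pandas 2.3.3 and numpy 2.4.6 under Python 3.11.15, permutations used scipy 1.17.1 and plots used matplotlib 3.10.9.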

Additional observations from a re-analysis of the deposited data

Results flagged for a closer look

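In 45 groups of 4 libraries, formed by the members and named pathway genes in each tissue, the highest or lowest library was compared with the other 3. Chance sets about 1 in 20 groups apart by this measure, and 3 groups were. Ccnd3 was at 5.62 RPKM in DKO tumor 1, far below the 10.1 to 10.6 RPKM of the other tumors. Myc was at 10.1 RPKM in DKO liver 3, far above the 1.99 to 2.56 RPKM of the other DKO livers. Fbxo31 was at 25.6 RPKM in DKO liver 1, far above the 10.3 to 12.2 RPKM of the other DKO livers. The causes of these values were not tested.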

How the results depend on the processing

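The count of genes passing in DKO tumors against WT livers, 216, became 1 without a filter, 609 under median-of-ratios scaling, 478 under quantile normalization, 3 with the tag as a covariate, 25 within the tag L03 and 483 without animal 3. For DKO livers against WT livers, 0, it became 1 under median-of-ratios scaling and 1 with the 8 libraries alone. For DKO tumors against DKO livers, 1, it became 2 without a filter, 0 with a filter of 2 RPKM, 24 under quantile normalization, 55 with the 8 libraries alone and 180 without animal 3. Leaving out single libraries gave 16 (without WT liver 4) to 413 (without DKO tumor 3), 0 to 2, and 1 to 363 (without DKO tumor 3) in these comparisons. In DKO tumors against WT livers the count was also 37, 20, 21 and 83 without DKO tumors 1 or 2 or WT livers 1 or 2, and in DKO tumors against DKO livers it was 20, 3, 2, 31 and 2 without DKO liver 3 or WT livers 1, 2, 3 or 4. The tag could not be used in the last comparison because it coincides with the groups. Median-of-ratios scaling put the median log2 change of all genes there at 0.01, beside -0.09.

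With the replicate number as a block, 128 genes passed in DKO tumors against WT livers (84 of them among the 216), 0 in DKO livers against WT livers and 71 in DKO tumors against DKO livers. Only the last is a pairing by animal, since WT numbers are shared by number alone (correlations -0.101 to 0.047 with tumors and -0.127 to 0.227 with DKO livers). The block changed no call of a member.

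Signs turned for members near 0. In DKO tumors against WT livers these were Ccnd2 (-0.02 under quantile normalization, -0.12 without animal 3), Rb1 (-0.04 under quantile normalization, -0.11 with the tag as a covariate and -0.11 within L03) and Ccnd3 (0.09 in both tag fits). For DKO livers against WT livers it was Rb1, 0.11 in both tag fits. Leaving out single libraries gave, in DKO tumors against WT livers, -0.04 to 0.67 for Ccnd1, -0.12 to 0.38 for Ccnd2, -0.22 to 0.08 for Ccnd3 and -0.05 to 0.15 for Rb1. Ranges for DKO livers against WT livers were -0.14 to 0.09 for Rb1, -0.29 to 0.02 for Cdkn1b and -0.62 to 0.02 for Myc. Ranges for DKO tumors against DKO livers were -0.44 to 0.06 for Ccnd2, -0.05 to 0.17 for Rb1 and -0.74 to 0.00 (without DKO liver 3) for Myc. Causes were not tested. Depth limits the low members most: Cdkn2c rests on 24 to 34 reads in 7 livers.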
